A study of Mus musculus with 1003 samples.

Results

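Gata2, Gata3, Hand1, Insm1, Eya1, Agtr2, Sytl4 and Pcp4 are 8 of the 32350 genes measured in single cells of the embryonic mouse gut. They were chosen by their measured values, as regulators of sympathetic or chromaffin cells and as leading genes of a cluster of 30 of the 1003 cells, which the authors numbered 9. Their levels in cluster 9 are therefore given as a description and without a test. The comparisons between genotypes were made over embryos, mostly in the cells outside that cluster.

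The cells were sorted for cyan fluorescent protein (CFP) from whole gut at embryonic days E12.5 and E14.5. All embryos carried at least 1 copy of RetCFP, in which a CFP cassette sits in Ret, the gene of a receptor needed by the neural crest cells that colonise the gut. The allele was made with a floxed human RET9 cDNA ahead of CFP, which β-actin-Cre had removed, so that CFP replaces Ret. RetCFP/+ embryos kept 1 intact Ret copy and served as the controls, and RetCFP/CFP embryos kept none. No group without the CFP allele is analysed here, so the controls themselves have a single working copy. The comparison of genotypes addresses what the loss of Ret does to these cells. At E12.5 there were 4 embryos of each genotype, 2 female and 2 male, with 347 RetCFP/+ and 298 RetCFP/CFP cells. At E14.5 there were 317 cells from 4 RetCFP/+ embryos and 41 RetCFP/CFP cells on 4 plates. The knock-in marks any cell in which the Ret locus is active, so the sort does not by itself select enteric cells. Each plate was taken as 1 embryo, a deduction from the plate and sorting records. The labels count 4 female RetCFP/CFP embryos at E14.5 where 3 plates hold them, so a plate of that group may hold more than 1 embryo. The p-values measure the spread between these embryos.

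Cells of the sympathoadrenal lineage are neural crest derivatives that settle outside the gut as sympathetic neurons and as chromaffin cells of the adrenal medulla, where they make and store catecholamines. Gata2, Gata3 and Hand1 encode transcription factors that act in that lineage, and Insm1 encodes a zinc finger factor of neuroendocrine cells. Enteric neurons and glia arise from other neural crest cells, which migrate through the gut and depend on Ret and on the endothelin receptor Ednrb.

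The genes lie on 6 chromosomes of mouse build GRCm38. Gata2 is at chr6:88193891-88207032 on the plus strand, Gata3 at chr2:9857078-9890034 on the minus strand and Hand1 at chr11:57828705-57832818 on the minus strand. Insm1 is at chr2:146221921-146225020 on the plus strand and Eya1 at chr1:14168954-14310235 on the minus strand. Agtr2 is at chrX:21484544-21489164 on the plus strand, Sytl4 at chrX:133936385-133981812 on the minus strand and Pcp4 at chr16:96467606-96525793 on the plus strand. Gata3 overlaps 3 other genes, Eya1 overlaps 2 and Pcp4 overlaps Igsf5. Those partners were at or near 0 where they were measured, with means of at most 0.0961 transcripts per cell in cluster 9.

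The upstream sequences of Gata3, Agtr2, Sytl4 and Pcp4 are shown because these are the members whose level outside cluster 9 was higher without Ret in each of the 4 pairs formed by batch and sex. They come from a table of RefSeq promoters on GRCm38.p6, in which 5 of the 8 members were matched. Those of Insm1, Eya1 and Hand1 are not used here. Each is the 250 bases before the annotated start, written 5′ to 3′ on the strand of the gene. For Agtr2 the 80 bases that lie inside an annotated exon are left off, which leaves 170. The Gata3 window is chr2:9878601-9878850, inside the longer interval given above, and those of Agtr2, Sytl4 and Pcp4 are chrX:21484374-21484543, chrX:133981813-133982062 and chr16:96467356-96467605. Capitals mark the letters GATAA on either strand, a form of the GATA core that GATA factors read. Other forms of that core, such as the gatag in the Sytl4 window, were not searched for and are not marked.
Gata3: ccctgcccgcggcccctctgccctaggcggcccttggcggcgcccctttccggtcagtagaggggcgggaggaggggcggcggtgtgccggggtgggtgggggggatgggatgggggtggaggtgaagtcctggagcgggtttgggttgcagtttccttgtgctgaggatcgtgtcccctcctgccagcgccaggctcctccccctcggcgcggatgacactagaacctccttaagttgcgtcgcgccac
Agtr2: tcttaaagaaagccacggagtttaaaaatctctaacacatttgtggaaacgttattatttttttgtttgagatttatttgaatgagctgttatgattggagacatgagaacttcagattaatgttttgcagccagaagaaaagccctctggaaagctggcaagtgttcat
Sytl4: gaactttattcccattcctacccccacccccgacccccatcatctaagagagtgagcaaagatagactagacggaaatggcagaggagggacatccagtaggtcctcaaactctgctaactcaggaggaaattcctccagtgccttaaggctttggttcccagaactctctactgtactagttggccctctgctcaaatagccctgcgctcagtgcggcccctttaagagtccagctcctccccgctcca
Pcp4: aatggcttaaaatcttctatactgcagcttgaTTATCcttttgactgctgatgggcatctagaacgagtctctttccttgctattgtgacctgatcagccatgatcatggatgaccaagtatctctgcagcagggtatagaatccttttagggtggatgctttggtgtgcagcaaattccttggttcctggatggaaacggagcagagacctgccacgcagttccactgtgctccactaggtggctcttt
Only the Pcp4 window held GATAA, once and on the opposite strand, where it reads as the capitals. Of 32851 promoter windows of the same length, 22.6% held it on either strand. The letters CAGCTG, which read the same on both strands, were in none of these 4 windows and in 4271 (13%) of all windows. The windows also differed in composition, with a GC share of 70% in Gata3, 53.2% in Sytl4, 46.8% in Pcp4 and 38.4% over the full Agtr2 window. A match describes letters and not a binding site.

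Cluster 9 came almost wholly from 1 embryo. E12.5 RetCFP/CFP female replicate 1 held 28 of its 30 cells, which was 33.3% of that embryo's 84 cells (exact binomial 95% interval 23.4% to 44.5%). RetCFP/CFP male replicate 2 held 1 of 35 cells and RetCFP/+ male replicate 1 held 1 of 82, and the other 5 E12.5 embryos and all E14.5 plates held 0. In the E12.5 embryos with 0, a share of up to 3.19% to 3.37% was allowed by 89 to 94 cells and of up to 3.66% by 82. Intervals and limits cover counting error only. The cells were spread over both split plates of the embryo, 11 of 41 and 17 of 43. RetCFP/+ female replicate 1 was on the same 2 split plates and had 0 of 45 and 0 of 44. Within that embryo the cluster 9 cells had a median of 4871.5 detected genes and the other 56 cells 4827.5. The genotypes were therefore compared mainly in cells outside cluster 9, and with that embryo left out where it bears on the result.

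The values are estimated transcripts per cell, and a cell is said to hold a gene where the value is above 1. They rise with the number of genes detected in a cell. The median was 4205 to 4865.5 detected genes in the E12.5 embryos of library batch HD01 (replicate 1 of each sex) and 6195.5 to 6760 in those of HD02 (replicate 2). Both genotypes are in both batches. Ret, the targeted gene, was at 3.81 ± 0.405 in E12.5 RetCFP/+ and 0.171 ± 0.0407 in RetCFP/CFP embryos (SD, n = 4 each), with no overlap. In cluster 9 Ret averaged 0.177 and was above 1 in 0 of 30 cells, the RetCFP/+ cell included, which had 0.0979. CFP itself averaged 20.2 in cluster 9 and was above 1 in all 30 cells, against 21.1 in the other 615 E12.5 cells.

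In cluster 9, 7 of the 8 genes were far above their level in other E12.5 cells and Insm1 was not. A cell of cluster 9 held a median of 6 of the 8 genes, and at least 3. Agtr2, Sytl4, Hand1, Eya1 and Gata3 were each found in 25 or more of the 30 cells, while Pcp4 was found in 17 and Gata2 in 14. Ranked by the difference of mean log2(value + 1) among 3513 genes, Agtr2 stood 1st, Sytl4 7th, Gata3 16th, Hand1 17th, Eya1 19th, and Pcp4 42nd, with Gata2 after them. These ranks restate how the genes were chosen. A single member, Pcp4, is among the 241 genes that the authors marked for ordering the cells.

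Of the transcription factors, Gata3, which acts in sympathetic neuron development, averaged 4.88 ± 3.41 transcripts per cell (SD over 30 cells) with a median of 4.43. It was above 1 in 25 of 30 cells, against 53 of 615 other E12.5 cells, whose mean was 0.401. Hand1, a basic helix-loop-helix factor, averaged 4.28 ± 3.70 (median 3.56) and was above 1 in 26 cells, against 10 of 615 and a mean of 0.0802. Elsewhere Gata3 was most often found in cluster 8, above 1 in 17 of 37 E12.5 cells, where Hand1 was above 1 in 8.

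Gata2, the relative of Gata3, was more uneven. Its mean was 1.51 ± 2.06 with a median of 0.477 and a highest cell of 6.94, and it was above 1 in 14 cells, against 8 of 615 and a mean of 0.0388 elsewhere. Insm1 averaged 0.172 ± 0.234 in cluster 9 and 0.190 in the other cells. It was above 1 in 0 of 30 cells, which allows a share of up to 10%, and in 33 of 615. Values above 0 were found in 16 of 30 and in 211 of 615 cells. By the mean and at the threshold of 1, the label of a sympathoadrenal-like set thus did not hold for Insm1 in these cells.

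Eya1, a transcriptional co-activator with phosphatase activity, averaged 7.05 ± 5.26 and was above 1 in 26 of 30 cells. It was also the member most widely found elsewhere, above 1 in 202 of 615 other E12.5 cells, with a mean of 1.42. Eya1 was therefore high in cluster 9 but not restricted to it.

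The genes of signalling and secretion covered the widest range. Agtr2, the angiotensin II type 2 receptor, averaged 17.05 ± 14.7 with a median of 13.1 and a highest cell of 70.4, and was above 1 in 28 of 30 cells. In other E12.5 cells it averaged 0.573 and was above 1 in 16 of 615. Sytl4, also called granuphilin, which docks secretory granules at the membrane, averaged 9.31 ± 7.03 (median 8.53) and was above 1 in 28 cells, against 0.424 and 29 of 615.

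Pcp4, a small protein that binds calmodulin, averaged 4.84 ± 5.98 (median 3.67) and was above 1 in 17 cells, against 1.16 and 40 of 615. Its highest cells were outside the cluster, up to 79.1, where the highest cell of cluster 9 had 21.7. High Pcp4 was thus found both in the cluster and in a few cells elsewhere.

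Within cluster 9 the members did not rise and fall together. The highest Pearson r between members over its 30 cells was 0.37, between Agtr2 and Hand1. Over all 645 E12.5 cells, Agtr2 and Hand1 had r = 0.83, Agtr2 and Sytl4 0.82 and Hand1 and Sytl4 0.74. In the 615 cells outside cluster 9 they were 0.73, 0.73 and 0.62. Insm1 had r between -0.02 and 0.07 with each of the others over all cells. These are descriptions across cells that share embryos and depth, with no test attached.

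The authors' predicted classes split the cluster into 19 neurons and 11 progenitor/glia cells, and the members crossed that split. Agtr2 averaged 16.5 in the neurons and 18.03 in the progenitor/glia cells, Gata3 4.82 and 4.98, and Sytl4 8.71 and 10.3. Eya1 was higher in the neurons, 8.88 against 3.89, and Gata2 and Pcp4 were higher in the progenitor/glia cells, 2.17 against 1.13 and 6.22 against 4.05. Insm1 was low in both, at 0.155 and 0.201.

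**Figure D1:**
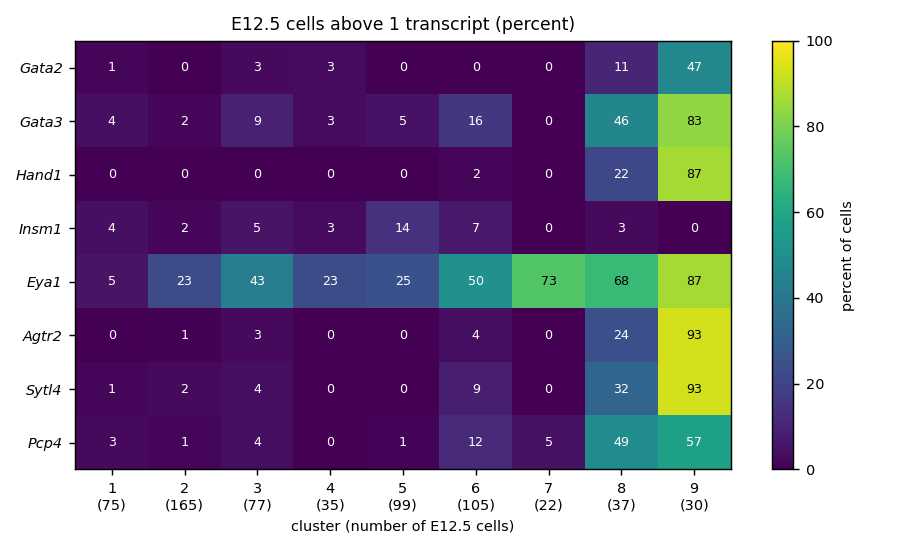
Percent of E12.5 cells with more than 1 transcript of each gene (rows) in each of the 9 clusters (columns, with the number of E12.5 cells in brackets), coloured from 0 to 100. Cluster 9 is highest for every gene except Insm1, and cluster 8 comes next for Gata2, Gata3, Hand1, Agtr2, Sytl4 and Pcp4.

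Other genes bear on the label as well. Of 14 genes of catecholamine synthesis and storage, 12 had a higher mean in cluster 9 than in other E12.5 cells. Th, the rate-limiting enzyme, averaged 11.8 against 1.72, Dbh, which makes noradrenaline, 19.8 against 3.26, and the granule protein Chga 7.94 against 0.778. The gap was smaller against the other cells of RetCFP/CFP female replicate 1, the embryo that held most of the cluster, in which Th averaged 10.5, Dbh 8.39 and Chga 3.66. Pnmt, which makes adrenaline in chromaffin cells, was listed at 0 in every E12.5 cell.

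Of 13 sympathetic neuron genes 10 were higher, among them the peptide gene Cartpt (32.9 against 3.37) and the filament genes Nefl (18.1 against 3.12) and Prph (7.20 against 1.18). Of 13 chromaffin and bridge cell genes 9 were higher, including Dlk1 (1.41 against 0.135), while the serotonin receptor gene Htr3a was not (0.0132 against 0.304). The other regulators were mixed, with 5 of 12 higher. Isl1 was at 9.02 against 0.783 and Hand2 at 1.07 against 0.531.

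Markers of enteric progenitors and glia were low, while enteric neuron genes were divided. All 10 enteric progenitor and glia genes were lower in cluster 9, with a median summed level per cell of 0.211 against 22.5, and Ednrb was at 0.0785 against 13.5. All 10 Schwann cell precursor genes were lower too, with a median sum of 0.0127 against 7.13 and Sox10 at 0.0856 against 2.86. Of 16 enteric neuron genes 6 were higher in cluster 9 and the median sum was 61.1 against 15.8. The general neuronal genes Uchl1 (18.4 against 6.51) and Snap25 (5.82 against 1.25) and the peptide gene Vip (5.67 against 0.534) were among the higher, while the peptide genes Gal (0 against 6.83) and Cck (0.0733 against 11.5) were among the lower. Gfra3, a receptor subunit of sympathetic neurons, was at 4.08 against 0.120, and Gfra1, the enteric partner of Ret, at 1.04 against 5.38.

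Genes of dividing cells were high, with 13 of 14 G2/M genes and 9 of 12 S phase genes above their mean elsewhere, and median sums of 69.1 against 25.98 and 69.1 against 42.4. Epithelial markers were at 0 for 8 of 8 genes, endothelial for 5 of 6, endocrine for 10 of 12, mesenchymal for 8 of 11, and adrenal cortex and kidney for 5 of 7. Of 9 blood and mast cell genes 5 were at 0, and Kit was the exception at 1.498 against 0.188. The median summed level was 0 in cluster 9 for epithelium, endothelium, endocrine cells, mesenchyme and adrenal cortex and kidney, and 1.26 for blood and mast cells. The lists overlap, since Chga, Chgb, Pnmt and Slc18a1 stand in both the catecholamine and the chromaffin list and Sox10, Erbb3 and Foxd3 are among those in both the Schwann cell precursor and the enteric progenitor list, and they hold none of the 8 members.

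By the fixed measure of likeness, Pearson r with the mean log2(value + 1) of the 8 members over 645 E12.5 cells, the nearest other genes were Isl1 (0.76), Chga (0.73), Gch1 (0.73), Slc18a1 (0.70) and Th (0.69). Pcsk1n, Cacng3, Nefl, Scn3b and Dlk1 followed, from 0.68 down to 0.64. Outside cluster 9 the first 4 were Slc18a1, Chga, Isl1 and Th, from 0.67 to 0.64. Insm1 kept other company, with Dll1 (0.41) and Gadd45g (0.39) nearest, and Eya1 was nearest to Nefl (0.57) and Map1b (0.51). Among leading genes of the cluster that are no members were Dbh, Rtn1, Cartpt, Nefl, Stmn2, Crabp1, Nefm, Isl1 and Th.

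Cells that held the set were also found outside cluster 9, in RetCFP/CFP embryos. Of 269 RetCFP/CFP cells outside it, 18 held 4 or more of the 8 genes, and of 346 RetCFP/+ cells 0 did, which allows a share of up to 0.867%. The 18 cells came from all 4 embryos, 9 from female replicate 1 and 3 from each of the others. The authors had placed 12 of them in cluster 8, 5 in cluster 6 and 1 in cluster 3. Cluster 8, of 37 E12.5 cells, had means of 10.3 for Pcp4, 5.88 for Agtr2, 5.22 for Eya1, 4.24 for Sytl4, 2.505 for Gata3, 1.18 for Hand1, 0.330 for Gata2 and 0.105 for Insm1. Within it, 12 of 28 RetCFP/CFP cells and 0 of 9 RetCFP/+ cells held 4 or more.

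The 18 cells were alike in some members and not in others. In the 9 cells of female replicate 1, Agtr2 was above 1 in all 9 (9.14 to 102.9) and Hand1 in 8, and Gata2 in 4. In the 9 cells of the other 3 embryos, Hand1 was above 1 in 1, Gata2 was at 0 in all 9, and Agtr2 was above 1 in 5. Gata3 was above 1 in all 9 of those cells (1.69 to 12.3) and in 8 of the 9 of female replicate 1. Sytl4 was also above 1 in all 9 of those cells (1.65 to 22.4), and was listed at 0 in some of female replicate 1. The cells were picked for holding 4 or more of the 8 genes. Those low in Gata2 and Hand1 therefore had to hold most of the others, and the sharing is a description only. Sox10 was at most 0.0345 in the 18 cells.

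**Figure D2:**
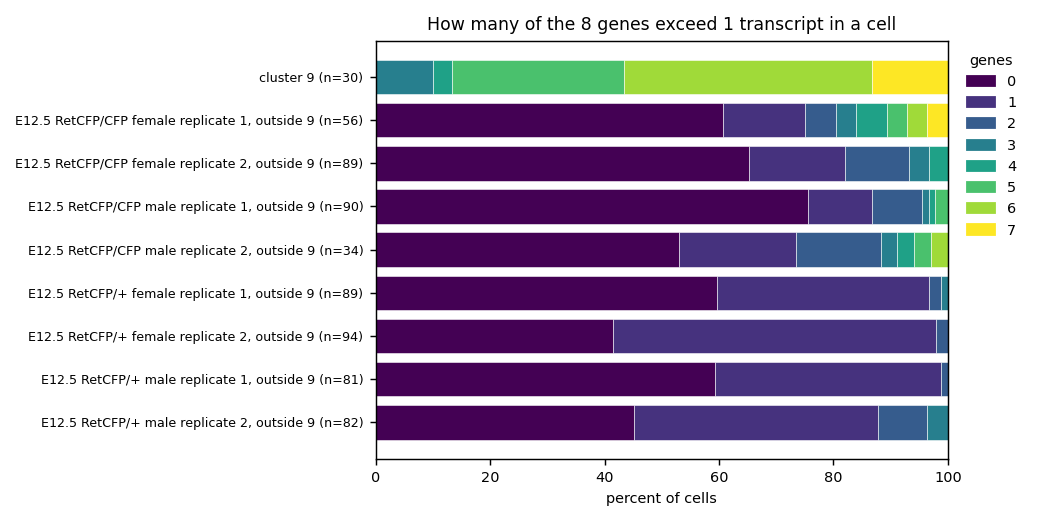
Percent of cells (horizontal axis) by how many of the 8 genes exceed 1 transcript in a cell (colour, 0 to 7), for the 30 cells of cluster 9 and for the cells outside it in each E12.5 embryo. Cells with 4 or more genes make up 27 of 30 in cluster 9, 9, 3, 3 and 3 cells in the 4 RetCFP/CFP embryos and 0 in the 4 RetCFP/+ embryos.

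The genotypes were compared over embryos in the cells outside cluster 9, by an exact permutation test of 4 RetCFP/CFP against 4 RetCFP/+ embryos, two-sided and unadjusted over the 8 genes, for which the smallest possible p is 0.0286. This test exchanges genotype labels over all 8 embryos and leaves their pairing by batch and sex unused. With labels exchanged within the 4 pairs alone, an alternative chosen after seeing the data, the smallest possible p is 0.125, so that no gene can pass, and Gata3, Sytl4, Agtr2 and Pcp4 were each at 0.125. Gata3, Sytl4 and Agtr2 were higher in every RetCFP/CFP embryo than in every RetCFP/+ embryo. Of all 20086 genes found in these cells, 1.24% were. Pcp4 was higher in each of the 4 matched pairs but the groups overlapped. Eya1, Insm1, Hand1 and Gata2 overlapped as well.

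Gata3 outside cluster 9 averaged 1.78, 0.459, 0.573 and 1.05 transcripts per cell in RetCFP/CFP female replicates 1 and 2 and male replicates 1 and 2. In RetCFP/+ embryos, in the same order, it averaged 0.0356, 0.000365, 0.0596 and 0.129. The lowest RetCFP/CFP embryo was thus above the highest RetCFP/+ embryo. The means were 0.967 ± 0.602 and 0.0562 ± 0.0544 (SD, n = 4 each; exact permutation p = 0.0286), and 0.694 in RetCFP/CFP without female replicate 1 (exact p = 0.0286, the smallest for 3 against 4). More cells held the gene, 48 of 269 against 5 of 346. The difference was 1.13 in batch HD01 and 0.690 in HD02.

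Sytl4 averaged 2.40, 0.492, 0.410 and 0.865 in the RetCFP/CFP embryos and 0.0424, 0.0395, 0.0229 and 0.0886 in the RetCFP/+ embryos. The groups did not overlap, with means of 1.04 ± 0.926 and 0.0484 ± 0.0282 (exact permutation p = 0.0286, and 0.0286 without female replicate 1, where the mean was 0.589). It was above 1 in 23 of 269 and 6 of 346 cells. The difference was 1.37 in HD01 and 0.614 in HD02.

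Agtr2 averaged 4.86, 0.0132, 0.772 and 0.249 in the RetCFP/CFP embryos and 0.00954, 0, 0.00117 and 0.000256 in the RetCFP/+ embryos. The groups did not overlap (exact permutation p = 0.0286, and 0.0286 without female replicate 1), but RetCFP/CFP female replicate 2 was close to the RetCFP/+ embryos and held the gene above 1 in 0 of 89 cells. The other 3 held it in 11 of 56, 3 of 90 and 2 of 34 cells, and the RetCFP/+ embryos in 0 of 346. The mean of 1.47 ± 2.28 fell to 0.345 without female replicate 1. With cluster 9 included, its 1 RetCFP/+ cell raised RetCFP/+ male replicate 1 to 0.295 and the groups overlapped (exact permutation p = 0.171).

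Pcp4 averaged 1.22, 1.86, 0.454 and 9.20 in the RetCFP/CFP embryos and 0, 0.0433, 0.360 and 1.12 in the RetCFP/+ embryos. RetCFP/CFP male replicate 1 lay below RetCFP/+ male replicate 2, so the groups overlapped (means 3.18 ± 4.05 and 0.381 ± 0.519, exact permutation p = 0.0571). Within a batch and sex RetCFP/CFP was higher in 4 of 4 pairs. The highest RetCFP/CFP embryo was not the one that held cluster 9.

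Hand1 and Gata2 were found in few cells outside the cluster. Hand1 averaged 0.719, 0.00657, 0 and 0.209 in RetCFP/CFP and at most 0.0136 in RetCFP/+ embryos (exact permutation p = 0.257), with 10 cells above 1 in RetCFP/CFP, 9 of them in female replicate 1, and 0 in RetCFP/+. Gata2 averaged 0.285, 0.0199, 0 and 0 against 0.0272, 0.0154, 0 and 0.0274 (exact permutation p = 0.886). All 6 RetCFP/CFP cells with Gata2 above 1 were from female replicate 1. For these 2 factors the values rest on that embryo.

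Eya1 averaged 1.57, 1.08, 0.591 and 1.41 in RetCFP/CFP and 1.26, 2.34, 1.40 and 1.71 in RetCFP/+ embryos. The groups overlapped (means 1.16 ± 0.433 and 1.68 ± 0.478, exact permutation p = 0.2), with 18.96% of 269 and 43.6% of 346 cells above 1. Insm1 lay between 0.133 and 0.227 in RetCFP/CFP and between 0.1397 and 0.251 in RetCFP/+ embryos (means 0.186 and 0.190, exact permutation p = 0.857). Eya1 was the member with fewer holding cells in RetCFP/CFP.

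**Figure D3:**
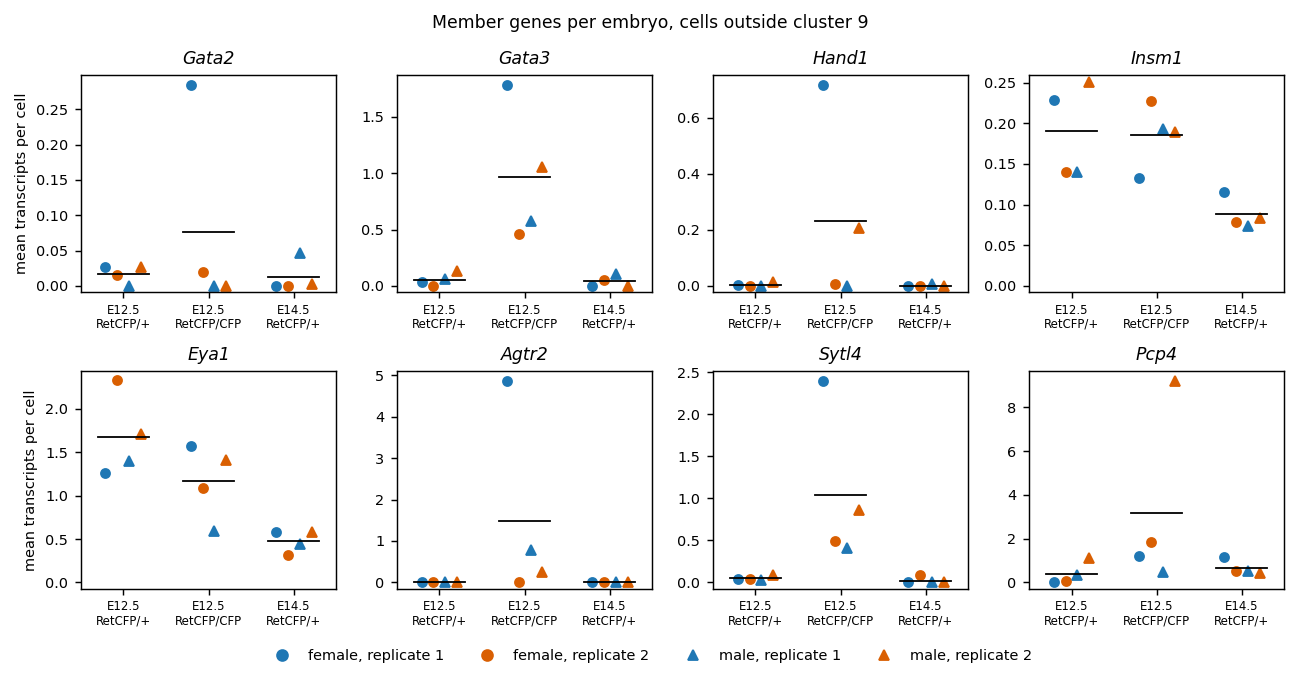
Mean estimated transcripts per cell outside cluster 9 (vertical axis, own scale per gene, from 0) in each of 12 embryos, by age and genotype; circles are females, triangles males, blue replicate 1 (batch HD01 at E12.5), orange replicate 2 (HD02 at E12.5), and bars the group mean. For Gata3, Sytl4 and Agtr2 all 4 E12.5 RetCFP/CFP embryos lie above all 4 RetCFP/+ embryos, by little for Agtr2 in female replicate 2 (0.0132 against 0.00954).

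The classes were then examined apart. In the progenitor/glia cells outside cluster 9, Gata3 averaged 0.802, 0.340, 0.338 and 0.569 in RetCFP/CFP and 0.00272, 0.000439, 0.0659 and 0.0226 in RetCFP/+ embryos. Sytl4 averaged 2.37, 0.245, 0.0828 and 0.234 against 0.0508, 0.0476, 0.0273 and 0.0773. Neither gene overlapped between genotypes (exact permutation p = 0.0286 each), where 1.22% of 19517 genes were higher in this way, and neither did without female replicate 1 (p = 0.0286 each).

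Eya1 in these cells averaged 1.37, 0.325, 0.496 and 0.489 in RetCFP/CFP and 1.08, 1.76, 1.03 and 1.54 in RetCFP/+ embryos. The difference did not pass the exact permutation test over all embryos (p = 0.0857), because female replicate 1 lay among the RetCFP/+ embryos. Without that embryo, left out after the values were seen, the groups did not overlap (mean 0.437 against 1.35, exact permutation p = 0.0286). That p is the smallest this split allows. The share of all genes that were lower in this way was not counted, so no conclusion is drawn from the gap.

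In neurons outside cluster 9 just 2 RetCFP/CFP embryos, both female, had 10 or more cells, so that no exact p can fall below 0.0667. Gata3 averaged 5.03 and 0.967 in those 2 and 0.186, 0, 0.0269 and 0.569 in the RetCFP/+ embryos. Sytl4 averaged 2.499 and 1.54 against 0.00407, 0, 0 and 0.135, and Pcp4 4.09 and 8.71 against 0, 0.0439, 2.23 and 3.08. Agtr2, at 6.27 and 0.0479 against at most 0.00617, and Gata2, at 0.688 and 0.0558 against at most 0.0242, did not overlap either. All 5 reached p = 0.0667 in the exact permutation test, where 6.32% of 16825 genes were higher in this way. Eya1, at 2.25 and 4.30 against 2.10 to 5.16, Insm1 and Hand1 overlapped.

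A limma fit over all genes was also made, in which genes entered where the mean was at least 1 in 2 or more pools of 10 or more cells. Most members did not pass in most sets of cells. Gata3 and Sytl4, and in progenitor/glia Pcp4, reached that mean in RetCFP/CFP pools alone, so the filter fixed their direction and their calls are given as a description. The sets with cluster 9 hold the cells by which the genes were chosen and are described on the same terms.

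Outside cluster 9, 3 members were tested and 1 was called, where 0.503% of 4575 genes were called higher. Gata3 had a log2 change of 0.85 (95% interval 0.49 to 1.21, limma adjusted p = 0.00972, and 0.0253 with the replicate block). Without the filter, when all 8 members entered, its adjusted p was 0.221 and 0 were called, where at least Gata3 and Sytl4 had an unadjusted p under 0.05. The call was also lost with a pseudocount of 0.1 (0.0672), and with each cell scaled to the same total, or without RetCFP/CFP female replicate 1 or male replicate 2, Gata3 did not pass the filter. Pcp4, which reached the mean in both genotypes, had a log2 change of 1.24 (adjusted p = 0.100) and Eya1 of -0.31 (adjusted p = 1.00).

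In neurons outside cluster 9, where 0.292% of 4790 genes were called higher, 2 of 3 tested members were called. Sytl4 had a log2 change of 1.55 (limma adjusted p = 0.0101, and 0.0191 without the filter) and Pcp4 of 2.18 (adjusted p = 0.0398, and 0.623 without the filter). Both calls were lost with a pseudocount of 0.1. Neither gene was called with each cell scaled to the same total or with averages of log2 values. Pcp4 also lost its call without RetCFP/+ female replicate 1 (adjusted p = 0.350) or 2 (0.249), and Sytl4 without RetCFP/+ female replicate 2 (0.0603). Without RetCFP/CFP female replicate 2 (Pcp4 0.366) a single RetCFP/CFP embryo remained, which was assumed to vary like the other groups.

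With cluster 9 included, 2 of 3 tested members were called in neurons (Sytl4 2.05 and Pcp4 2.18, limma adjusted p = 0.00225 and 0.0245), where 0.524% of 4771 genes were called higher, and neither without the filter. In all cells 1 of 4 tested members was called, where 0.262% of 4586 genes were. This was Gata3, with a log2 change of 0.95 (SE 0.21, adjusted p = 0.0224), which lost its call with a replicate block for library batch (0.142), without the filter (0.544), with a pseudocount of 0.1 (0.0629) or 10 (0.237), and without RetCFP/+ female replicate 1 (0.0605) or 2 (0.0908). Without RetCFP/CFP female replicate 1 or male replicate 2 it did not pass the filter.

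In progenitor/glia, cluster 9 included, limma called 0 of 2 tested members, both with an unadjusted p under 0.05, where 0.421% of 4515 genes were called higher. The log2 change was 0.86 for Pcp4 (adjusted p = 0.273) and -0.44 for Eya1 (adjusted p = 1.00). Outside cluster 9, a fit added after seeing the data, Eya1 was at -0.52 (adjusted p = 0.497) and Pcp4 did not pass the filter. Without RetCFP/CFP female replicate 1 Eya1 passed (-0.71, adjusted p = 0.0452), and without RetCFP/CFP male replicate 1 Pcp4 did (1.19, adjusted p = 0.00457).

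**Figure D4:**
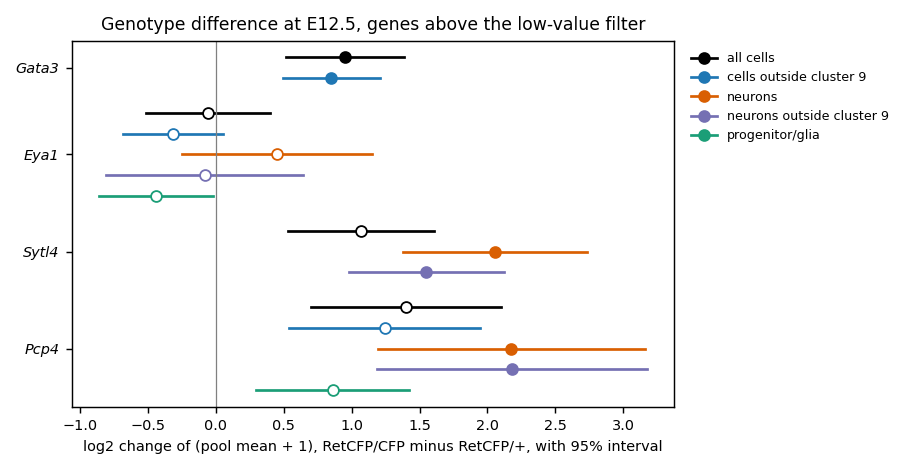
log2 change of (pool mean + 1), RetCFP/CFP minus RetCFP/+ at E12.5, with its 95% interval (horizontal axis) for each member that passed the filter on low values, by set of cells (colour); filled points have a limma adjusted p under 0.05. Gata3 is filled in all cells and outside cluster 9, Sytl4 and Pcp4 in both sets of neurons, and Eya1 in none; Gata3 and Sytl4 passed the filter through RetCFP/CFP pools alone.

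Few of the related genes were called outside cluster 9, where, as above, 0.503% of all genes were called higher. Several reached the filter mean in RetCFP/CFP pools alone (Isl1, Ddc, Th, Chga, Chgb, Htr3a, Itga4 and Col3a1), so the filter fixed their direction. Their values, like the medians of lists that hold them, are a description. Itga4 is a gene of the Schwann cell precursor list. Of the other regulators 5 of 12 were tested and Isl1 was called, at a log2 change of 1.28 (limma adjusted p = 0.000683), with means of 0.612 to 3.36 in RetCFP/CFP and 0.0313 to 0.326 in RetCFP/+ embryos, while the list's median log2 change was -0.13 beside 0.03 over all genes. Of the catecholamine genes 8 of 14 were tested and Ddc was called, at 1.31 (adjusted p = 8.98e-05), with a median of 0.45. Of the sympathetic neuron genes 9 of 13 and of the chromaffin genes 5 of 13 were tested and limma called 0, with medians of 0.22 and 0.56. The 2 sympathetic neuron genes with an unadjusted p under 0.05 were lower in RetCFP/CFP (Cartpt -1.57 and Elavl4 -0.64), and the 3 such chromaffin genes higher (Chgb 0.71, Chga 0.60 and Htr3a 0.56). In neurons outside cluster 9, where Th reached the filter mean in both genotypes, it rose by 1.93 (adjusted p = 0.0379).

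Of the enteric neuron genes 5 of 12 tested were called lower outside cluster 9, with a median of -0.74, where 0.372% of 4575 genes were called lower. They were Gal (-3.34), Ass1 (-1.24), Hoxb5 (-1.17), Etv1 (-1.15) and Hoxa5 (-0.85), which reached the filter mean in 0 RetCFP/CFP pools and in 3 or 4 of the 4 E14.5 RetCFP/+ pools, which are not part of this contrast. Of the Ret and GDNF family receptor genes 3 of 6 were tested and Ret itself fell. Of the S phase and G2/M genes 12 and 12 were tested and limma called 0, also at an unadjusted p under 0.05. Of the Schwann cell precursor and enteric progenitor and glia genes, 5 and 6 were tested, with medians of 0.05 and 0.12. The 1 tested mesenchyme gene, Col3a1, was at 0.88 (adjusted p = 0.00615), with means of 0.711 to 2.06 in RetCFP/CFP and 0.0152 to 0.309 in RetCFP/+ embryos, its direction fixed by the filter as above. In neurons outside cluster 9, G2/M genes moved with Sytl4 and Pcp4, as 12 of 12 tested G2/M genes had a positive change and 5 were called, with a median of 1.42. Plk1, Nusap1 and Bub1, of which Plk1 was called, reached the filter mean in RetCFP/CFP pools alone. Of 9 S phase genes tested in these neurons 7 had a positive change and Rrm2 was called, at 1.72 (limma adjusted p = 0.0205), with a list median of 0.36. CFP in these neurons was at 8.80 in RetCFP/CFP and 25.9 in RetCFP/+. The part of these genes in the result was not tested.

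Across age, within RetCFP/+ cells outside cluster 9, Eya1 fell by 0.84 on the log2 scale from E12.5 to E14.5 (SE 0.18, limma adjusted p = 0.00254). It averaged 1.26, 2.34, 1.40 and 1.71 at E12.5 and 0.580, 0.320, 0.445 and 0.583 at E14.5, without overlap. Of all 4575 genes 42% were called lower, the median change of all genes was -0.44, and age cannot be told apart from library batch and the number of PCR cycles. Gata3 (-0.02) and Pcp4 (0.31) were tested and not called, and the other 5 did not pass the filter.

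At E14.5 the set was found in RetCFP/CFP cells of 1 plate. Of the 41 RetCFP/CFP cells 2 held 4 or more of the 8 genes, both among the 6 cells of female replicate 2, and of the 317 RetCFP/+ cells 0 did. One held 7 genes, with Sytl4 at 33.5, Agtr2 at 18.2, Hand1 at 7.28, Pcp4 at 46.3, Eya1 at 3.96, Gata2 at 1.13 and Gata3 at 1.05. The other held 5, with Pcp4 at 20.1, Gata2 at 9.62, Gata3 at 4.96, Eya1 at 3.67 and Sytl4 at 3.30, and Agtr2 listed at 0. Neither had Insm1 above 0. The 29 cells of female replicate 1 held at most 2 genes each, and Pcp4 was above 1 in 9 of them. These plates were too small for a test.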

How the data were processed

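Polyadenylated RNA of 1003 sorted cells was profiled with a modified Smart-seq2 protocol without molecular identifiers. The authors deposited a matrix whose values are a signal, estimated transcripts per cell, with tables of the genes and of the cells. The submitters' processing notes name HISAT2 2.0.1, SAMtools 1.2, Cufflinks 2.2.1 and build mm10 without their role or order. The deposited cell table holds whole-number counts of reads and of detected genes and, as a percent, the reads that aligned. Clusters are those of the deposited cell table and the classes those of the labels. Wells with 2 cells (11, 0 of them in cluster 9) and 15 cells below 100000 reads stayed in, without a doublet caller.

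The cells of a plate, taken as an embryo, were averaged into pools, and pools under 10 cells were left out, which left 13 pools of all cells and 11 of neurons. Means were put on the log2(mean + 1) scale and fitted over all pools at once by limma 3.58.1 (R 4.3.3), with sex as a covariate beside the 4 combinations of genotype and age. Genes entered with a mean of at least 1 in at least 2 pools, and an adjusted p (Benjamini-Hochberg over all tested genes) under 0.05 was called. A change on this scale understates that of low genes. The script was tested on simulated data. Single members were also compared by exact permutation over embryos. Embryos of the same batch label deviated together within each sex (r = 0.51 in females and 0.54 in males), so the label was taken to pair them.

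The genes, lists and rules were chosen with earlier results of these data known. The text names all 8 members, the leading genes of cluster 9, the 10 genes most alike in pattern with 2 for each member, and from each list the called genes and those with the highest mean in cluster 9, except some that are not reported here. The lists are fixed sets of regulators, lineage, cell cycle and contaminant markers. Alternatives changed the pseudocount, filter, scaling, pool size, averaging, pools fitted and batch block, and left out single embryos, low-read cells or wells with 2 cells.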

Additional observations from a re-analysis of the deposited data

Results flagged for a closer look

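Each group of 4 embryos was examined for an embryo far from the other 3, in the mean of each member outside cluster 9 and in the share of cells in cluster 9. Of 26 groups, 11 had such an embryo, and 3 of the 11 were E12.5 RetCFP/CFP female replicate 1. The cut-off sets apart about 5% of groups by chance where values are normally distributed. Many of these means are at or near 0, where a single cell can set an embryo apart, so the count cannot be read against that share. The cluster 9 shares also restate how the genes were chosen.

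That embryo stood apart in Gata2 (0.285 transcripts per cell, the next embryo at 0.0199), in Agtr2 (4.86, the next at 0.772) and in the share of cells in cluster 9 (33.3%, the next at 2.86%). The Gata2 and Agtr2 values leave out cluster 9, so the cells of this embryo that the authors placed elsewhere also held more of both. E12.5 RetCFP/CFP male replicate 2 stood apart in Pcp4 (9.20, the next at 1.86). In RetCFP/+ embryos at E12.5, female replicate 1 stood apart in Agtr2 (0.00954) and male replicate 1 in the share of cells in cluster 9 (1.22%), which is 1 cell.

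At E14.5, RetCFP/+ male replicate 1 stood apart in Gata2 (0.0469), Agtr2 (0.00635) and Hand1 (0.00611), female replicate 2 in Sytl4 (0.0885) and female replicate 1 in Pcp4 (1.16, the next at 0.521). Apart from Pcp4, these are levels at which 2 cells at most exceed 1 transcript.

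Cells of the small E14.5 RetCFP/CFP plates entered no comparison. In female replicate 2, 2 of 6 cells held 4 or more of the 8 genes, above the 0 of 317 seen in RetCFP/+ cells of that age.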

How the results depend on the processing

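Of 389 alternative values of the member changes, 324 kept direction and side of the threshold, 29 lost a call, 27 gained one and 9 turned sign. Each set of cells called 0 to 2 members, so a count moves with 1 gene. In all cells the count of called members went from 1 to 0 with a pseudocount of 10, without the filter, with each cell scaled to the same total and with a replicate block for library batch, to 3 with E12.5 pools only and without cells under 100000 reads, and ran from 0 to 3 leaving out single embryos. Outside cluster 9 it went from 1 to 0 without the filter and at the same total, to 2 with E12.5 pools only, and ran from 0 to 2 leaving out embryos. In neurons it went from 2 to 0 with a pseudocount of 0.1 and without the filter, to 1 with a minimum mean of 2 and at the same total, to 3 with the second class column, and ran from 0 to 2 leaving out embryos. In neurons outside cluster 9 it went from 2 to 0 with a pseudocount of 0.1, at the same total and with averages of log2 values, to 1 with a pseudocount of 10, without the filter, with a minimum mean of 2 and with E12.5 pools only, to 3 with the second class column, and ran from 0 to 2 leaving out embryos. In progenitor/glia it went from 0 to 1 with E12.5 pools only and ran from 0 to 1 leaving out embryos. Across age it went from 1 to 0 with a minimum mean of 2. Causes were not tested, except that stricter filters and fewer embryos test fewer members.

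Gata3 outside cluster 9 did not pass the filter in 4 of 24 alternatives and was called in 18 of the other 20 (limma adjusted p 0.0025 to 0.221). Counted over the alternatives in which the gene was tested, Gata3 in all cells was called in 14 of 20, Sytl4 and Pcp4 in neurons outside cluster 9 in 14 of 19 and 14 of 22, and Eya1 across age in 21 of 21. Gata3 and Sytl4 passed the filter through their RetCFP/CFP pools, which fixes their direction, so these counts are no sign of stability. The values that turned sign were uncalled and near 0. For Eya1 in all cells they were 0.0020 with a pseudocount of 10, and, in a range of -0.32 to 0.16 leaving out embryos, 0.04, 0.08 and 0.16 leaving out RetCFP/+ female replicate 2, RetCFP/CFP female replicate 2 and RetCFP/CFP male replicate 1. For Eya1 in neurons outside cluster 9 they were, in a range of -0.43 to 0.27, 0.21 and 0.27 leaving out RetCFP/+ female replicate 2 and RetCFP/CFP female replicate 1, and 0.27 with the second class column, an alternative chosen after seeing the data, as were the progenitor/glia fit outside cluster 9, leaving female replicate 1 out of the exact tests and exchanging labels within pairs. For Gata3 across age they were, in a range of -0.057 to 0.018, 0.018 and 0.0026 leaving out E12.5 RetCFP/+ male replicate 2 and E14.5 RetCFP/+ female replicate 1.

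Under the replicate block the count over all genes was 59 instead of 27 in all cells, 100 instead of 40 outside cluster 9, 49 instead of 31 in neurons, 40 instead of 19 in neurons outside cluster 9 and 77 instead of 36 in progenitor/glia. Of the members it changed the call of Gata3 in all cells alone. Over the alternatives that keep every embryo, these counts ran from 10 to 59, 19 to 100, 5 to 58, 3 to 40 and 11 to 77. Pools of at least 20 cells left no comparison in neurons. Precision is set by 4 embryos a genotype, of which 1 supplies most member-rich cells.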

Other observations

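Hox genes, which record position along the body axis, differed between the cells of cluster 9 and other cells, and among the cells outside it with 4 or more of the 8 genes. This was noticed after the values were seen and is a description of cells, without a test. Of 12 Hox genes of paralog groups 7 to 10, at least 1 was above 1 transcript in 27 of 30 cluster 9 cells (90%), in 10 of 346 RetCFP/+ cells (2.89%) and in 6 of the 251 RetCFP/CFP cells outside cluster 9 with fewer than 4 of the 8 genes. Hoxc10 was above 1 in 33.3% of cluster 9 cells and Hoxa9 in 26.7%, and both in 0 of 346 RetCFP/+ cells. Of 12 genes of groups 2 to 5, at least 1 was above 1 in 10 of 30 cluster 9 cells, in 336 of 346 RetCFP/+ cells and in 188 of those 251. Hoxd3 was above 1 in 6.67% of cluster 9 cells, 88.2% of RetCFP/+ cells and 64.3% of RetCFP/CFP cells outside cluster 9.

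The RetCFP/CFP cells outside cluster 9 with 4 or more of the 8 genes fell on both sides. In female replicate 1, 8 of 9 such cells held a gene of groups 7 to 10 and 3 of 9 a gene of groups 2 to 5. In the other 3 embryos 1 of 9 held a gene of groups 7 to 10 and 9 of 9 a gene of groups 2 to 5. Gata3, Sytl4 and Pcp4 were above 1 together in most such cells of the other 3 embryos. In female replicate 1 they were together in fewer, and Pcp4 was at 0 in several. Hand1 was found above 1 in 9 of the 18 cells, 8 of them in female replicate 1. Whether such cells belong to the gut wall or to tissue beside it was not tested.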
